A study of Mus musculus with 6 samples.

Results

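The iron genes examined here were Tfrc, Slc11a2, Slc40a1, Ireb2, Aco1, Fth1, Ftl1, Steap3 and Fbxl5, measured in LT-HSCs, the long-term stem cells of the bone marrow from which all blood is renewed. Members were all probe sets that the array's annotation pairs with 1 of these genes alone, including the 3 array controls for the mouse transferrin receptor. The 9 genes gave 22 probe sets of 45040 tested. Ftl1 had none, since the 3 probe sets paired with it are also paired with other genes, and its expression is not analysed. Tfrc had 6 probe sets, Slc11a2 had 4, Aco1 and Steap3 had 3 each, Slc40a1 and Fth1 had 2 each, and Ireb2 and Fbxl5 had 1 each. No filter on low values was applied to them.

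The double knockout (dKO) group carried MxCre with c-myc f2 N-myc f2, that is, floxed Myc and Mycn on a mixed background. Controls carried the floxed genes without MxCre (the label of control replicate 2 writes M-Myc for the second gene). MxCre is driven by an interferon-responsive promoter that is induced by pI-pC (a double-stranded RNA made by synthesis), and it acts in interferon-responsive cells in general and not in stem cells alone. All mice of both groups were 8 weeks old, received 2 daily doses of pI-pC and were killed 3 days after the last. The sort gate was Lin-Sca1+CD150+CD48-, and each of the 3 arrays per group held a pool, of 3 mice in the dKO group and 2 in the control group. Nothing in the labels names other conditions, so groups without pI-pC were not compared. The comparison asks how the transcripts of sorted stem cells differ between these 2 groups. Loss of both Myc genes in stem cells, their loss in other cells, MxCre itself and pool size cannot be told apart.

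Iron enters most cells bound to transferrin through the transferrin receptor, Tfrc. In the endosome it is reduced by Steap3 and passed to the cytosol by the transporter Slc11a2 (DMT1), and any surplus is stored in ferritin, built of Fth1 and Ftl1 chains, or exported by ferroportin, Slc40a1. The iron regulatory proteins Aco1 (IRP1) and Ireb2 (IRP2) bind RNA hairpins, stabilising the Tfrc transcript and blocking ferritin translation when iron is scarce, and Fbxl5 marks Ireb2 for degradation when iron is plentiful. Tfrc is a known Myc target, and Myc has been described as repressing Fth1 and inducing Ireb2. Arrays measure transcripts and not translation, so the translational arm of this control is outside these data.

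Values are log2 expression values, and array medians lay between 5.90 and 5.97. Of the deleted genes, Myc fell by 2.93 ± 0.20 (SE, log2; limma adjusted p = 0.00137). The Mycn probe sets 1417155_at and 1425922_a_at were both lower: all 3 dKO values of the first lay in the range of the negative controls, so its fall from a control mean of 10.81 was at least 119-fold against the highest of these, and the second fell by 1.61, while 1425923_at had 4.40 in control and 4.32 in dKO pools. Negative control probe sets, of which there were 3, ran from 2.13 to 3.92. All 13 measured LT-HSC markers had a mean above the median probe set, although 6 of them were lower and 1 higher in dKO pools by limma. Those lower were Tek (log2 difference -2.25), Hlf (-1.66), Esam (-1.37), Hoxb5 (-1.10), Kit (-0.87) and Mllt3 (-0.76), and Gata2 was higher (0.63). Of all genes, each taken at its probe set of highest mean, 3.56% were called lower and 4.49% higher (limma adjusted p under 0.05). Every control array had a summed linear level of these 13 markers of at least 15684.5, whereas no dKO array exceeded 13118.5. Slamf1, which encodes the CD150 used in the sort, was not called, with a log2 difference of 0.08 (limma adjusted p = 0.855). The part of these marker differences in the iron gene values was not tested. Poly-A spike controls averaged 10.55 on control replicate 2 and 11.23 to 12.01 on the other arrays. The 3' minus 5' difference of the Gapdh controls, a sign of RNA quality, was 2.12, 2.33 and 2.36 in control and 2.43, 2.39 and 2.47 in dKO arrays, without overlap. The small number of arrays, 3 in each group, limits the precision, and no label gives a scan date or other batch.

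Tfrc was lower in dKO stem cells at each of its 6 probe sets, and the other 7 measured genes of iron uptake and storage had no probe set past the threshold. A probe set counts as called where limma's Benjamini-Hochberg adjusted p over all 45040 probe sets was under 0.05. Of all probe sets tested, 6.99% were called, 3.42% lower and 3.57% higher in dKO. Among the 22 iron probe sets, 3 fell, all of Tfrc, 0 rose and 19 were not called. At an unadjusted limma p under 0.05 there were 7 lower and 2 higher, where 11.3% and 10.4% of all probe sets tested are; 6 of the 7 were of Tfrc. The median log2 difference of the 22 was -0.13, against -0.01 over all probe sets tested. It was -0.83 for the 6 Tfrc probe sets and -0.04 for the 16 others. Control and dKO values did not overlap at 7 iron probe sets lower in dKO and 2 higher, where 14.0% and 13.4% of all probe sets do so. Of those 7, 6 were of Tfrc, so they report on 1 transcript and are not independent of each other.

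The brightest Tfrc probe set on average, 1422967_a_at, read 9.52, 9.06 and 9.33 in control pools and 8.66, 8.27 and 8.37 in dKO pools. Every dKO pool was therefore below every control pool. Its mean dropped from 9.30 ± 0.23 to 8.44 ± 0.20 (SD, n = 3 pools per group), to 54.8% of the control level (log2 difference -0.87 ± 0.18 SE, limma adjusted p = 0.0325). The array control for the middle of the transcript read 7.30, 6.95 and 7.06 in control and 6.30, 6.04 and 5.97 in dKO pools. This was the largest of the Tfrc differences, -0.996 ± 0.161 (SE), or 50.1% of control (limma adjusted p = 0.0155). The 5' control read 7.96, 8.14 and 8.46 against 7.62, 7.13 and 6.91, a difference of -0.97 ± 0.22 (SE) or 51.1% of control (limma adjusted p = 0.0487).

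The remaining Tfrc probe sets had separate groups too, without passing the threshold. The 3' control read 7.06, 7.51 and 6.97 in control and 6.36, 6.65 and 6.40 in dKO pools (difference -0.71 ± 0.18 SE, limma adjusted p = 0.0698). Probe set 1422966_a_at read 7.31, 7.78 and 7.31 against 6.65, 7.07 and 6.70 (-0.66 ± 0.19 SE, limma adjusted p = 0.0954). At 1452661_at the values were 8.94, 9.42 and 8.55 against 8.48, 8.30 and 7.74 (-0.79 ± 0.28 SE, limma adjusted p = 0.150). There the lowest control and the highest dKO pool lay close together, and both groups had an SD of about 0.4 (0.43 and 0.39). The 95% intervals of all 6 differences were below 0, from -1.50 at the lowest to -0.14 at the highest bound.

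**Figure D1:**
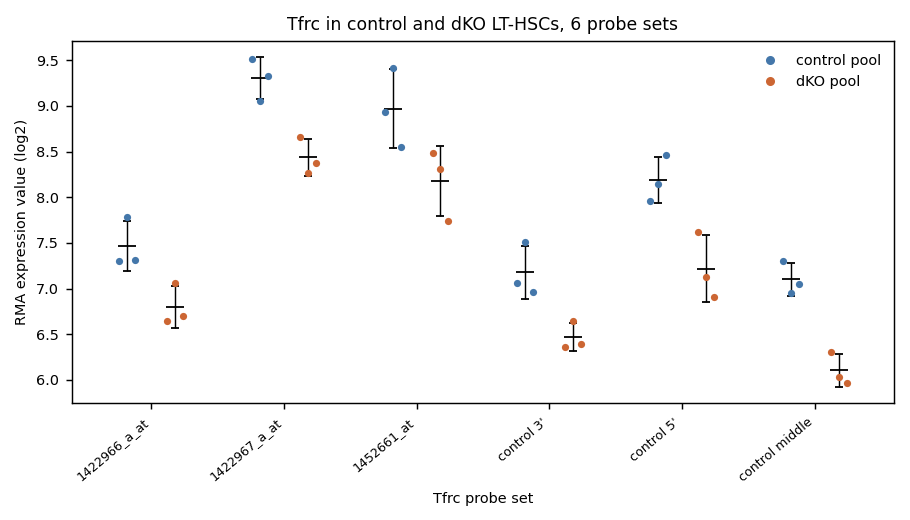
Log2 expression values of the 6 Tfrc probe sets (x axis) in 3 control pools (blue) and 3 dKO pools (orange), with the mean and SD of each group in black; "control 3'", "control 5'" and "control middle" are the array's own transferrin receptor controls. All dKO pools lie below all control pools at every probe set, most narrowly at 1452661_at.

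Averaged over the 6 probe sets of an array, Tfrc was 8.01, 8.14 and 7.95 in control pools and 7.35, 7.24 and 7.01 in dKO pools. The group means were 8.03 ± 0.10 and 7.20 ± 0.17 (SD, n = 3), a 1.78-fold decrease (log2 difference -0.83 ± 0.14 SE, 95% interval -1.16 to -0.51, limma adjusted p = 0.0152). This p came from a separate fit to values averaged per gene, adjusted over 28285 entries. Probe sets without a single symbol stayed as entries of their own. Each Tfrc probe set had an exact two-sided permutation p of 0.1, the lowest value possible for 3 against 3. Calls of single probe sets were lost with 1 array left out. That of 1422967_a_at held only without control replicate 2 (limma adjusted p up to 0.102). The call of the 5' control held only without dKO replicate 1 (up to 0.135). Their differences stayed between -0.99 and -0.76 and between -1.17 and -0.81. Over the whole table, calls with 1 array left out dropped from 1608 to between 708 and 893 higher. Those lower dropped from 1541 to between 633 and 813. The 5' control also lost its call with arrays centred on their medians (limma adjusted p = 0.0562) and after quantile normalization (0.0580). The same held with the replicate number as a block (0.119). The middle control was not called when dKO replicate 2 or dKO replicate 3 was left out (up to 0.0571). In bulk samples, fewer cells with a transcript and less of it per cell cannot be told apart.

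The 3 transferrin receptor controls allow the change to be followed along the transcript. The 3' minus 5' difference was -0.91, -0.63 and -1.49 in control and -1.26, -0.48 and -0.51 in dKO arrays. These overlap, with means of -1.01 ± 0.44 and -0.75 ± 0.44 (SD, n = 3; exact two-sided permutation p = 0.5). The middle minus 5' means were -1.09 and -1.12 (exact permutation p = 1). So no difference in fall between the ends of the transcript was detectable with these arrays. The Gapdh 3' minus 5' difference, given above, was higher by 0.16 in dKO arrays (exact permutation p = 0.1), and that of Actb ran from 0.10 to 0.23 in control arrays and from 0.20 to 0.21 in dKO arrays. The part of RNA quality in the Tfrc difference was not tested.

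Because Tfrc and Fth1 are both known targets of transcriptional control by Myc, their promoter sequences are shown, taken from RefSeq (GRCm38.p6). The first is the 250 bases before the first annotated Tfrc start, chr16:32608646-32608895 on the plus strand. The second is a 29-base stretch that spans this start, chr16:32608882-32608910. The third is the 250 bases before the second annotated Fth1 start, chr19:9982396-9982645 on the plus strand. In the 250-base sequences capitals mark a CCAAT box, a common promoter element, on either strand. In the short sequence they mark ACGTG, the core shared by the motifs of Myc and the hypoxia factors.
Tfrc promoter: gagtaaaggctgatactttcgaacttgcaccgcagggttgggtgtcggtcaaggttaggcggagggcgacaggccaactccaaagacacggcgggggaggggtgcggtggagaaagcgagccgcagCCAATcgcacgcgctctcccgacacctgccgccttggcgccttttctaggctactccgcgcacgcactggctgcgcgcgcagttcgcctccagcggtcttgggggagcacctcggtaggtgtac
Tfrc start: ctcggtaggtgtACGTGcggaaggaagtg
Fth1 promoter: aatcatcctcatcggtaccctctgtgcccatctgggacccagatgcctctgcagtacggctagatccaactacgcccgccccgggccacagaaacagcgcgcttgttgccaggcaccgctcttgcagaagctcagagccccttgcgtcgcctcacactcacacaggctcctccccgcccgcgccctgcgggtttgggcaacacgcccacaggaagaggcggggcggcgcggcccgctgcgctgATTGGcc
Windows from 250 bases before to 50 after a start were searched on both strands for 4 motifs. CACGTG is the E-box that Myc and Max bind. The shorter core ACGTG also lies within that E-box. The other motifs were the CCAAT box, a common promoter element, and the core of the TATA box, searched as TATAA. RefSeq had 11 such windows for 6 of the genes: Tfrc, Fth1, Ftl1, Ireb2, Aco1 and Steap3. CACGTG was in 0 of the 11 windows, and in 7.15% of all 32851 windows. ACGTG was in both Tfrc windows, which hold the same site, and in no other window of these genes, against 19.6% of all windows. Its first base lies 2 bases before the first Tfrc start. CCAAT was in 4 windows, of Tfrc, Fth1, Ftl1 and Steap3 (37.4% of all windows), and TATAA also in 4, of Tfrc, Fth1 and Ftl1 (24.9% of all). In the Fth1 and Ftl1 windows a TATAA lies after the annotated start, at bases 27 and 18. A match describes letters only, and sites outside these windows, such as those in introns, were not searched.

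Endosomal handling of iron was measured through Steap3 and Slc11a2. Steap3, the ferrireductase, read 6.49, 6.42 and 6.50 in control and 6.63, 6.34 and 6.11 in dKO pools at 1423468_at, its brightest probe set on average. The groups overlapped, with a difference of -0.11 ± 0.16 (SE, log2; 95% interval -0.50 to 0.28; limma adjusted p = 0.772). Its probe set 1430355_a_at was in the negative control range on all 6 arrays and so gives no measure of the gene, and 1453498_x_at, whose name marks probes that can cross-hybridise, differed by -0.02.

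Slc11a2, the divalent metal transporter, had 4 probe sets with overlapping groups. At 1452078_a_at it read 7.22, 6.63 and 7.10 in control and 7.27, 6.57 and 6.68 in dKO pools (difference -0.14 ± 0.24 SE, 95% interval -0.71 to 0.42, limma adjusted p = 0.800). The differences at 1426441_at and 1417584_at were -0.06 ± 0.25 and -0.05 ± 0.29 (SE). At 1417584_at the control pools spanned 6.27 to 6.32 and the dKO pools 5.57 to 6.77, so the spread lay in the dKO group. The dim probe set 1441709_at had 2 of 6 values in the negative control range and differed by -0.48 ± 0.35 (SE, limma adjusted p = 0.501). The intervals of the 4 probe sets ran from -1.30 to 0.63, and at 3 of the 4 the lower bound was under -0.66, the smallest Tfrc difference.

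Ferritin heavy chain, Fth1, the iron-oxidising subunit of the storage shell, had higher values in every dKO pool at both probe sets, but neither was called. At 1448771_a_at it read 12.28, 12.28 and 12.32 in control and 12.48, 12.48 and 12.42 in dKO pools. The groups did not overlap, and the difference was small, 0.17 ± 0.12 (SE, log2), or 112% of control (limma adjusted p = 0.492). At 1427021_s_at the values were 8.45, 8.50 and 8.03 against 8.85, 8.92 and 8.79, a difference of 0.52 ± 0.16 (SE), or 144% of control (limma adjusted p = 0.115). The suffix of this probe set marks probes shared by several transcripts, and Fth1 has near-identical pseudogene copies, so its signal may not be of Fth1 alone. Averaged over both probe sets, Fth1 differed by 0.35 ± 0.12 (SE, 95% interval 0.06 to 0.63, limma adjusted p = 0.145 in the fit to values averaged per gene). This lay on the other side of 0 from the Tfrc difference, and the 95% intervals of the averaged Fth1 and Tfrc values do not meet. The interval of 1448771_a_at alone, -0.11 to 0.45, included 0, and that of 1427021_s_at, 0.14 to 0.91, did not.

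Ferroportin, Slc40a1, the iron exporter, was dim on these arrays. At 1417061_at it read 5.15, 5.05 and 5.20 in control and 5.40, 4.61 and 4.93 in dKO pools, below the median of every array. The difference was -0.15 ± 0.21 (SE, 95% interval -0.65 to 0.35, limma adjusted p = 0.757). At 1448566_at, 4 of 6 values were in the negative control range, and the single readings of 5.07 in a control pool and 4.68 in a dKO pool stood above the rest. No difference was detectable there, with an interval from -1.12 to 1.11.

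**Figure D2:**
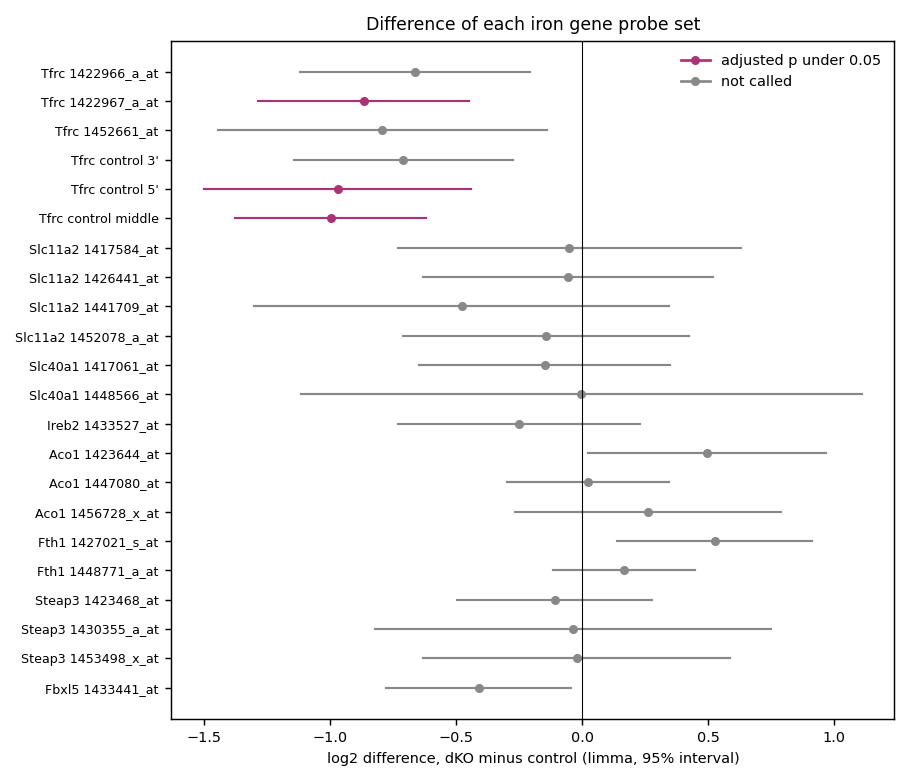
Log2 difference, dKO minus control (x axis), for each of the 22 iron gene probe sets (rows), with limma's 95% interval; purple marks an adjusted p under 0.05. The 6 Tfrc rows lie wholly below 0, from -0.66 to -0.996, and only Fbxl5, 1 Aco1 and 1 Fth1 probe set among the others have an interval that leaves out 0.

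Among the regulators, Aco1, the cytosolic aconitase that becomes iron regulatory protein 1 without its iron-sulphur cluster, read 7.16, 6.59 and 6.62 in control and 7.14, 7.50 and 7.21 in dKO pools at 1423644_at. Control replicate 1 lay just inside the dKO range. The difference was 0.49 ± 0.20 (SE, log2), 141% of control, and was not called (95% interval 0.02 to 0.97, limma adjusted p = 0.209). A second probe set, 1456728_x_at, read 6.88, 6.44 and 7.03 against 7.32, 6.70 and 7.12 (0.26 ± 0.22 SE). The third, 1447080_at, had 4 of 6 values in the negative control range.

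Ireb2, iron regulatory protein 2, read 8.98, 8.31 and 8.68 in control and 8.54, 8.19 and 8.49 in dKO pools at 1433527_at. The groups overlapped (difference -0.25 ± 0.20 SE, 95% interval -0.73 to 0.23, limma adjusted p = 0.551). Fbxl5, the iron-sensing ubiquitin ligase subunit that removes Ireb2 protein, read 9.07, 8.89 and 8.81 against 8.44, 8.73 and 8.37 at 1433441_at. All dKO pools were below all control pools, and the mean was 75.2% of control. This difference of -0.41 ± 0.16 (SE) was not called (95% interval -0.78 to -0.05, limma adjusted p = 0.181).

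**Figure D3:**
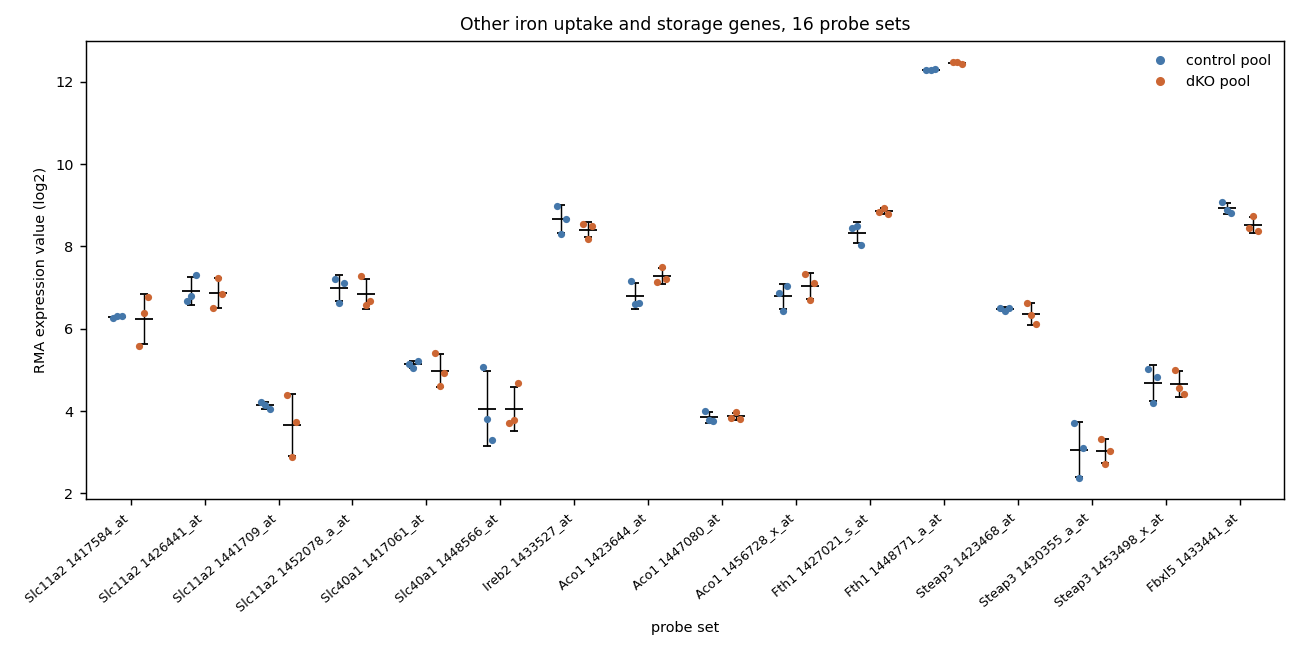
Log2 expression values of the 16 probe sets of the other iron genes (x axis) in 3 control pools (blue) and 3 dKO pools (orange), with the mean and SD of each group in black. Groups separate only at both Fth1 probe sets, higher in dKO, and at Fbxl5, lower in dKO; 1 probe set each of Slc40a1, Steap3, Aco1 and Slc11a2 lies near the negative controls, which reach 3.92.

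The other genes of iron metabolism were taken from 3 lists, with each gene represented by its probe set of highest mean. Over all 18193 genes so represented, 8.05% were called, 3.56% lower and 4.49% higher, with a median log2 difference of 0.01. In transport and handling, 2 of 28 genes fell, 0 rose and 26 were not called (median 0.06). At an unadjusted limma p under 0.05, 3 were lower and 1 higher, where 10.8% and 12.3% of all genes so represented are, so these counts are near or under the background. The fall of Tfr2, the second transferrin receptor, which senses transferrin-bound iron and is found in liver and erythroid cells, was larger than that measured for Tfrc. It read 9.15, 9.59 and 9.83 in control and 7.97, 8.23 and 7.92 in dKO pools at 1459994_x_at. The groups lay far apart, and the level dropped to 35.8% of control (difference -1.48 ± 0.20 SE, limma adjusted p = 0.00919). The name of this probe set marks probes that can cross-hybridise. A second Tfr2 probe set, 1425381_a_at, fell by 1.22 ± 0.21 (SE, limma adjusted p = 0.0189), to 42.9% of control. Whether the Tfr2 and Tfrc differences are unequal was not tested.

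Both mitoferrins, which carry iron into mitochondria, were lower in every dKO pool. Slc25a37 (mitoferrin 1) read 7.17, 7.27 and 7.49 in control and 6.47, 6.73 and 6.48 in dKO pools, a fall of 0.75 ± 0.15 (SE, log2; limma adjusted p = 0.0319). Slc25a28 (mitoferrin 2) read 7.43, 7.27 and 7.39 against 6.81, 7.01 and 6.56, and its difference of -0.57 ± 0.16 was not called (limma adjusted p = 0.084). Ncoa4, which delivers ferritin to lysosomes for breakdown, differed by 0.08 and the ferritin iron chaperone Pcbp1 by 0.25, neither called; these were chosen after their values were seen.

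Of 18 haem genes, 2 rose, 0 fell and 16 were not called (median -0.12). At an unadjusted limma p under 0.05, 2 were higher and 4 lower, against the 12.3% and 10.8% given above for all genes. Hmox1, the inducible haem oxygenase that frees iron from haem, read 5.07, 5.18 and 5.22 in control and 6.42, 6.21 and 5.72 in dKO pools. It rose by 0.96 ± 0.20 (SE, log2; limma adjusted p = 0.0324), from a control level below every array median. Blvra, biliverdin reductase A, which acts on the product of haem oxygenase, read 8.44, 8.22 and 8.31 against 8.94, 8.89 and 9.15 and rose by 0.67 ± 0.14 (SE, limma adjusted p = 0.0341). Blvrb, biliverdin reductase B, went the other way without being called (-0.51 ± 0.14, limma adjusted p = 0.0795), with no overlap between the groups. Ferrochelatase, Fech, which inserts iron into haem, differed by -0.41 (limma adjusted p = 0.243), and was chosen after its value was seen.

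Of 20 genes of iron-sulphur cluster assembly, 2 rose, 2 fell and 16 were not called (median 0.06). At an unadjusted limma p under 0.05, 8 were higher and 5 lower, and the groups did not overlap at 9 higher and 5 lower, where 15.8% and 14.2% of all genes so represented do so. Hscb, the co-chaperone that hands the new cluster on, read 8.42, 8.49 and 7.96 in control and 6.83, 7.09 and 7.15 in dKO pools. It fell by 1.26 ± 0.19 (SE, log2), to 41.6% of control (limma adjusted p = 0.0116). Glrx3, a cytosolic glutaredoxin that handles clusters, fell by 0.92 ± 0.19 (SE, limma adjusted p = 0.0349). The mitochondrial carrier protein Isca1 rose by 0.81 ± 0.13 (SE, limma adjusted p = 0.015), from 9.04 ± 0.04 to 9.85 ± 0.12 (SD, n = 3 pools per group), and its second probe set by 0.80. Ciao2b, of the cytosolic targeting complex, rose by 0.96 ± 0.17 (SE, limma adjusted p = 0.0213), with values of 8.09, 8.50 and 7.95 against 9.14, 9.19 and 9.11.

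With 1 array left out in turn, Tfr2 and Hscb kept an adjusted p under 0.05 in all 6 fits (up to 0.0404 and 0.0454). Blvra, Glrx3 and Slc25a37 lost their calls in all 6 (up to 0.105, 0.109 and 0.101). Hmox1 was called only without dKO replicate 3 (up to 0.101 otherwise) and Ciao2b only without control replicate 2 (up to 0.0727 otherwise). Isca1 was not called when dKO replicate 2 or dKO replicate 3 was left out (up to 0.0559).

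**Figure D4:**
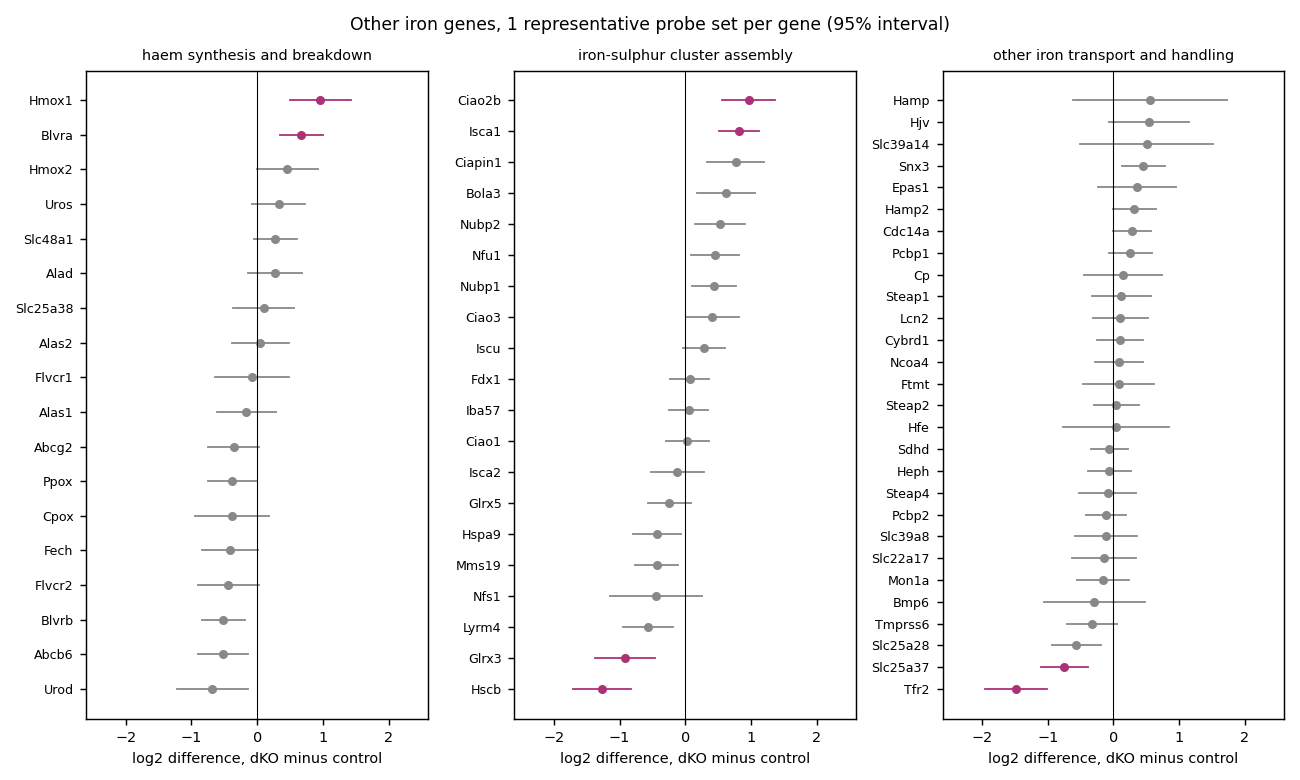
Log2 difference, dKO minus control (x axis), for the representative probe set of each gene in 3 lists of other iron genes (rows), with limma's 95% interval; purple marks an adjusted p under 0.05. Called genes lie on both sides of 0 in the iron-sulphur list, only above 0 in the haem list (Hmox1, Blvra) and only below 0 in the transport list (Tfr2, Slc25a37).

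Several iron genes are abundant in erythroid cells and macrophages and in dividing cells, so markers of these were measured beside them. Each marker was represented by its probe set of highest mean. Of all genes so represented, 3.56% were called lower and 4.49% higher by limma. At an unadjusted limma p under 0.05, 10.8% were lower and 12.3% higher. These shares apply to every marker list below. Of 14 erythroid markers, 1 fell and 0 rose by limma (median -0.24; 2 higher and 2 lower at an unadjusted p under 0.05). The one that fell was Klf1, an erythroid transcription factor, which read 7.84, 7.28 and 7.29 in control and 5.98, 6.17 and 5.34 in dKO pools (-1.64 ± 0.26 SE, limma adjusted p = 0.0150). The summed linear level of the list ran from 6817 to 7487 in control arrays and from 6249 to 6515 in dKO arrays, without overlap. Car2 alone made up 88.3% of this sum, and without it the list spanned 855 to 930 in control arrays and 606 to 840 in dKO arrays, again without overlap. Rhag and Hba-a1 had means in the negative control range, and Gata1 differed by 0.66 (limma adjusted p = 0.145). The part of erythroid transcripts in the Tfrc, Tfr2 and Slc25a37 differences was not tested.

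Of 18 macrophage and monocyte markers, 2 rose and 0 fell by limma, C1qb by 1.79 ± 0.31 and Mrc1 by 2.05 ± 0.36 (SE, log2; adjusted p = 0.0191 and 0.0208), and 3 were higher and 1 lower at an unadjusted p under 0.05. Since 2 of the 3 control values of Mrc1 lay in the negative control range, the size of its difference is poorly measured. The dKO mean of Mrc1, 5.96, lay 2.04 above the highest negative control. The defining markers Csf1r, Cd68 and Adgre1 had differences of -0.13, 0.37 and -0.46 (limma adjusted p = 0.796, 0.396 and 0.0897). C1qa and C1qc differed by 0.49 and 0.29, without being called (limma adjusted p = 0.0970 and 0.289). Control and dKO values did not overlap at 4 markers higher in dKO and 1 lower. Of all genes so represented, 15.8% and 14.2% do so. The summed linear level spanned 3608 to 4635 in control arrays and 3549 to 4167 in dKO arrays, which overlap, but Lyz1 and Lyz2 made up 82.9% of it. Without them it spanned 578 to 606 in control arrays and 693 to 806 in dKO arrays, without overlap. The mean log2 value of the list was also higher on every dKO array (5.80 to 5.97) than on any control array (5.63 to 5.69). Adgre1 was in the negative control range on all 3 dKO arrays, and the other 16 markers besides Mrc1 had both group means above it. Their part in the Hmox1 and Fth1 values was not tested.

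Of 13 proliferation markers, 0 were called by limma in either direction, also at an unadjusted limma p under 0.05, with a median of 0.01 and overlapping summed levels (8726 to 10101 in control arrays, 8919 to 9671 in dKO arrays). Among the remaining marker lists, 0 of 13 granulocyte and 0 of 9 B cell markers were called by limma, with 2 granulocyte markers lower and 1 B cell marker higher at an unadjusted p under 0.05. Of 12 T and NK cell markers 1 rose, Thy1 by 1.25, with a summed level of 564 to 630 in control arrays and 929 to 1042 in dKO arrays, 50.7% of it Thy1 on average. Without Thy1 the sum spanned 332 to 352 in control arrays and 323 to 451 in dKO arrays, which overlap. The granulocyte list had a median of -0.59 and summed levels of 996 to 2980 in control arrays and 432 to 1449 in dKO arrays, and the B cell list a median of 0.20.

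Of 9 megakaryocyte and platelet markers, 4 rose and 1 fell by limma, and the summed level spanned 4047 to 4700 in control arrays and 8921 to 13825 in dKO arrays. Pf4 and Ppbp made up 59.1% of this sum on average. Without them it spanned 1979 to 2368 in control arrays and 3179 to 4007 in dKO arrays. Ppbp, a platelet chemokine, rose by 5.67 ± 0.30 (SE, log2; limma adjusted p = 0.000511), from a mean of 5.81 to 11.49. Pf4, Itgb3 and Itga2b rose by 1.11, 1.41 and 1.16, and Vwf fell by 1.04. Gp9, Tubb1, Gp6 and Gp1bb differed by 0.20, 0.12, -0.03 and -0.23, and none of them was called. The part of these and the other marker lists in the iron gene differences was not tested.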

How the data were processed

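The deposited values are log2 expression values per probe set, made by the authors with RMA per the submitters' processing notes, which give no version; the log2 scale was read from the values, 1.49 to 13.85. RMA scales arrays to each other and compresses dim changes, so all differences are relative. Per the labels' protocols, Trizol-extracted RNA went through 2 amplification rounds (NuGEN WT-Ovation Pico), which can distort differences. Probe sets were named from a platform annotation table (34945 with 1 symbol). Limma 3.58.1 (R 4.3.3; lmFit, eBayes) was fitted to dKO minus control over 45040 probe sets: all but the array controls, of which the transferrin receptor sets were kept. P-values were adjusted by Benjamini-Hochberg, threshold 0.05, and the fit was tested on simulated data. Groups came from sample titles. The members and lists (haem, iron-sulphur, transport, and markers) were chosen with earlier results of these data known. Named were all members, the deleted genes and, per iron list, the called genes, or the 3 of smallest p where fewer than 3 were called. Summed levels add 2 to the power of each value. P-values measure the spread between pools of mice, 1 pool per array.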

Additional observations from a re-analysis of the deposited data

How the results depend on the processing

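Of the 22 iron probe sets, 0 rose in any alternative. The number that fell was 3 with array weights, with a trended robust prior and with every array control kept in, 4 with only probe sets above the median level (the Tfrc 3' control added), 2 with each array centred on its median or after quantile normalization, and 0 (without dKO replicate 2 or 3) to 2 with 1 array left out. All 6 Tfrc probe sets kept their direction throughout. With the replicate number as a block 2 iron probe sets fell, and 0 of the other iron genes rose and 2 fell, against 4 and 4; equal numbers did not pair arrays (correlations of deviations -0.02, 0.00 and 0.01). In the whole table the block gave 814 higher and 717 lower, against 1608 and 1541. With 1 array left out the whole table had 708 to 893 higher and 633 to 813 lower, and the other iron genes 0 to 3 higher and 2 lower in each case; they had 6 lower (4 higher) above the median level. Centring on the median shifted all differences by 0.06. It turned the sign of some small uncalled differences, Slc11a2 1417584_at (to 0.010, and 0.0059 after quantile normalization), Slc11a2 1426441_at (0.0055), Steap3 1430355_a_at (0.025, and 0.082 with array weights), Steap3 1453498_x_at (0.040, and 0.059 with array weights) and Slc40a1 1448566_at (0.058, 0.0055 after quantile normalization and 0.036 with array weights). Leaving out 1 array gave ranges that cross 0 for these 5 (-0.31 to 0.28, -0.24 to 0.14, -0.38 to 0.28, -0.27 to 0.15 and -0.39 to 0.50) and for Slc40a1 1417061_at (-0.36 to 0.037), Steap3 1423468_at (-0.24 to 0.016) and Aco1 1447080_at (-0.027 to 0.099). The group difference of the Tfrc 3' minus 5' measure was 0.26 (0.02 to 0.51 with 1 array left out), and it was -0.027 for middle minus 5' and 0.29 for 3' minus middle. The exact permutation test cannot pass 0.05 with 3 against 3, so no count of calls was made with it. The cause of these shifts was not tested.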
